A study of Mus musculus with 16 samples.

Results

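Nodal, its co-receptor and inhibitors, and the feedback genes of Nodal and BMP signalling were examined for chromatin accessibility in mouse embryonic stem cells depleted of FOXD3 and sorted by cell cycle phase. The 10 genes were Nodal, Tdgf1, Lefty1, Lefty2, Smad6, Smad7, Skil, Id1, Id2 and Id3, a list named by gene with no measured value in the rule. Each was given the deposited window of 5000 bp whose midpoint lay nearest its transcription start site (TSS) and within 650 bp, and every accessible region over the gene body and 20000 bp on either side. All 10 genes had a window, out of 38053 distinct windows, and together they held 82 of the 127646 regions. No region was counted for more than 1 gene.

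The assay was ATAC-seq: a transposase cuts open DNA and leaves sequencing adaptors there. The 4HT cells carried the genotype label FOXD3-iKO and were treated with tamoxifen (4HT) for 24 h to deplete FOXD3, a transcription factor with a forkhead domain. The EtOH cells carried the same FOXD3-iKO genotype, received ethanol and served as the control. Both were grown in L2i medium and then separated, by the DNA content that DAPI staining shows, into fractions labelled G1, ES, LS and G2. The 16 libraries, 2 in each of the 8 groups, are represented by 8 pooled columns, so values below carry no SD and no replicate check. The labels do not say whether the cells were 1 clone or which part of Foxd3 was removed. A column averages many cells, so a smaller share of cells with an open site and a less open site in each cell cannot be told apart.

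Nodal is a secreted ligand of the TGF-beta family that signals through activin receptors with the co-receptor Tdgf1, also called Cripto, and activates the transcription factors Smad2 and Smad3. The Lefty proteins block the ligand and are themselves induced by it, which closes a feedback loop. BMP ligands act through Smad1, Smad5 and Smad9 and induce the Id genes, whose products bind and disable basic helix-loop-helix factors. In mouse embryonic stem cells the Id proteins are known for holding back neural differentiation. Smad6 and Smad7 are inhibitory Smads induced by the pathway, and Skil, also called SnoN, is a corepressor that binds activated Smads.

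Promoter sequences were at hand for 5 of the genes, from RefSeq on GRCm38.p6, the assembly named mm10. They are shown because the results turn on accessible regions that lie over or beside these start sites. Each runs 5′ to 3′ on the gene's strand, from 250 bases before the start site to 50 after it, and capitals mark matches to the motifs searched. The Nodal promoter (chr10:61417722-61418021, plus strand) lies under no accessible region.
Nodal: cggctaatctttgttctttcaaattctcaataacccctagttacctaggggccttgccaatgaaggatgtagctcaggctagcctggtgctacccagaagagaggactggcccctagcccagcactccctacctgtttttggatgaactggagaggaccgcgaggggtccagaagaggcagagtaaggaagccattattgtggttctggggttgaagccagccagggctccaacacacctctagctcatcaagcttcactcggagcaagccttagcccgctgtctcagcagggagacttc
Of the Tdgf1 promoter (chr9:110946109-110946408, minus strand), 151 bases lie under an accessible region.
Tdgf1: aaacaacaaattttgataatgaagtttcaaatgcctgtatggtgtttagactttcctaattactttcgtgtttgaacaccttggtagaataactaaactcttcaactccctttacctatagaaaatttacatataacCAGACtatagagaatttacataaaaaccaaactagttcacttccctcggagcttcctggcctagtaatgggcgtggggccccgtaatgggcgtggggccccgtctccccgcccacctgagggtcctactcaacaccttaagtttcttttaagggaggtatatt
The Smad6 promoter (chr9:64022010-64022309, minus strand) lies wholly under a region, with all 300 bases.
Smad6: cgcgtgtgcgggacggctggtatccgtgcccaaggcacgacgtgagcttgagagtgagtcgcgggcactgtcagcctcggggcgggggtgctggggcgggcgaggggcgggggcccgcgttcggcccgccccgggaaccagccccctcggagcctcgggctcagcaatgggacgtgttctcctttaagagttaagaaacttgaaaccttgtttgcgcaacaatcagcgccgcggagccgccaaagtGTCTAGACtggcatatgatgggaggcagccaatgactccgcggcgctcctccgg
The Id2 promoter (chr12:25096043-25096342, minus strand) has 295 bases under a region.
Id2: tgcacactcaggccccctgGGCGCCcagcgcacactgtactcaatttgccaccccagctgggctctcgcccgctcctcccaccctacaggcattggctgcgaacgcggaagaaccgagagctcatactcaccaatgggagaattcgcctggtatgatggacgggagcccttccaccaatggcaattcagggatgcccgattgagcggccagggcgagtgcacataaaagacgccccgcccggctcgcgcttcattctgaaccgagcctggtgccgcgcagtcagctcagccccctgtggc
The Id3 promoter (chr4:136143572-136143871, plus strand) has 212 bases under a region.
Id3: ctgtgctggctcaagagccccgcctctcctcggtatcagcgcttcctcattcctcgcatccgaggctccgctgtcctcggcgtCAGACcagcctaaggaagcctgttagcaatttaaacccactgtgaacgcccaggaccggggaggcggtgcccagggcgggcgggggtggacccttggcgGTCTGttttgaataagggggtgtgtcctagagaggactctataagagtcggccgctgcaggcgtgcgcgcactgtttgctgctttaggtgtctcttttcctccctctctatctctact

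The 5 promoters held 5 matches to the 7 motifs searched on both strands. The SMAD core CAGAC was found at Tdgf1, starting 113 bases before the start site, and at Id3, starting 167 and 68 bases before it, and 49.6% of all 32851 promoters of the same length hold it. The SMAD palindrome GTCTAGAC spans the start site of Smad6 as the promoter table places it, beginning 4 bases before it, and 0.213% of all promoters hold it. The GC-rich site GGCGCC, bound by Smad1 and Smad5, was found at Id2, starting 231 bases before the start site, against 11.9% of all promoters. None of the 5 held the BMP response element, which contains the GC-rich site (0.0731% of all promoters), the FOXH1 site AATCCACA (0.855%), the forkhead core GTAAACA (3.65%) or the TATA box TATAAA (13.6%). The Nodal promoter held no match to any of the 7. These matches describe letters in a window, and binding was not measured here. The GC content was 66.3% at Smad6, 63.3% at Id2, 60.0% at Id3, 54.0% at Nodal and 41.7% at Tdgf1, where the median over all promoters was 52.7%.

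The deposited values are a coverage signal in CPM, scaled to the size of each library. They were read as averages over the bases of an interval that hold a read. The smallest value of a column was shared by many intervals and was read as the worth of 1 read, 0.0895 to 0.147 over the 8 columns, which implies 6780000 to 11180000 reads. A level below is the signal as a multiple of that 1-read value, averaged over the columns with a read. On that reading a level is a mean over covered bases only, so windows of the same level can differ in how much of their length was covered. An order of levels is then an order of this mean. In this unit an interval cannot fall below 1, so that losses at weak sites are understated. A deposited signal likewise cannot fall below the 1-read value of its column, which differs between the treatments. In LS it was 0.0903 in 4HT cells against 0.122 in EtOH cells, and in G1 the 4HT column had the highest, 0.147. Pairs of deposited signals at weak intervals are therefore not directly comparable between columns. The TSS window of Foxd3 itself had a signal of 0.243, 0.158, 0.141 and 0.169 in 4HT cells over the fractions G1 to G2, against 0.153, 0.195, 0.155 and 0.110 in EtOH cells, which does not check the depletion, since the removed part is not known. The windows of 10 stem cell markers had a median level of 1.87, with Klf2 the highest at 2.73 and Esrrb the lowest at 1.25. Those of fibroblast markers (6 of 8 with a window) had a median of 1.29, from 1.13 at Col3a1 to 1.65 at Fn1. Those of primitive endoderm markers (5 of 6) had a median of 1.16, from 1.11 at Dab2 to 1.46 at Foxa2. The levels of the 3 lists thus overlapped.

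The windows of Nodal and Smad7 had the highest levels of the 10 genes, and those of Id1 and the Lefty genes the lowest. A window reaches well beyond its start site, and that of Nodal holds a strong region upstream and none over the promoter shown above. The 10 windows had a median level of 1.78, against 1.37 for the 15945 protein-coding windows with a read in every column. Nodal stood at 2.42, above 95.6% of those windows, Smad7 at 2.41, Tdgf1 at 2.26 and Skil at 2.17. A middle group held Id3 at 1.80, Id2 at 1.77 and Smad6 at 1.73. Lefty1 at 1.45, Lefty2 at 1.44 and Id1 at 1.42 lay above 55.6% to 59.6% of protein-coding windows.

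Neighbours in this order were mostly interchangeable from column to column. Nodal was higher than Smad7 in 2 of 8 columns only, although its mean was higher, and Tdgf1 and Skil each led the other in 4 of 8. The widest steps lay between Skil and Id3, where Skil was higher in 7 of 8 columns, and between Smad6 and Lefty1, where Smad6 was higher in 8 of 8. Within each of the remaining neighbouring pairs the higher gene led in 4 or 5 of 8 columns.

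**Figure D1:**
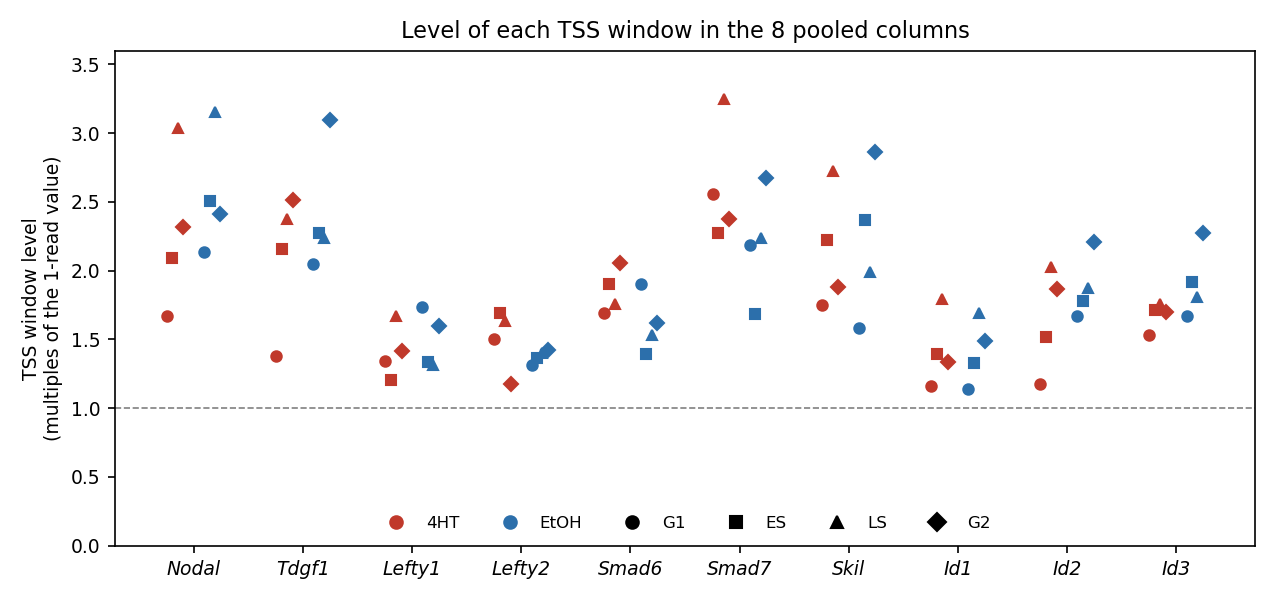
Level of the TSS window of each gene (y axis, multiples of the 1-read value, dashed line at 1) in the 8 pooled columns, with 4HT in red left of EtOH in blue and a symbol for each fraction. Nodal, Tdgf1, Smad7 and Skil reach above 2.5 in some columns, while Lefty1, Lefty2 and Id1 stay below 2.

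The 82 regions were weak for the most part, and the strong ones lay close to the start sites. A read was present in every column at 40 of the 82 regions (48.8%), where the share over all regions was 30.4%. Of these, 15 also had a mean level of at least 2 and entered the tests, which is 18.3% of the 82 against 8.63% of all regions. Of the 32 regions centred within 5500 bp of a start site 14 were tested, and of the 50 farther ones 1 was tested. The same split was not counted over all regions, so it is not a trait shown to be particular to these genes. The limit of 5500 bp was not a planned setting, and it falls just past a tested Tdgf1 region centred 5411 bp upstream. The tested regions were longer, at 204 to 1314 bp with a median of 487 bp, than the 67 not tested, at 112 to 863 bp with a median of 241 bp.

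The genes differed in how many strong regions they held. Id3 had 4 tested regions of 5, Lefty2 3 of 9, Tdgf1 2 of 10 and Smad6 2 of 8. Nodal (8 regions), Smad7 (12), Skil (5) and Id2 (8) had 1 each, and Lefty1 (9) and Id1 (8) had none. Over the 82 regions, 30 lay upstream, 8 over a start site, 17 in the gene body and 27 downstream. A further annotated gene was overlapped by 23 of them, such as Lrrc2 upstream of Tdgf1 and Tmem63a downstream of Lefty1, so nearness does not assign a region to its gene. At the level minimum, the Smad6 region at 64018539 to 64018852 (2.10) was just inside and the Tdgf1 region at 110946515 to 110947011 (1.94) just outside. A Tdgf1 region at 1.996 and an Id2 region at 1.95 also lay just under the minimum, and each had 1 column without a read.

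**Figure D2:**
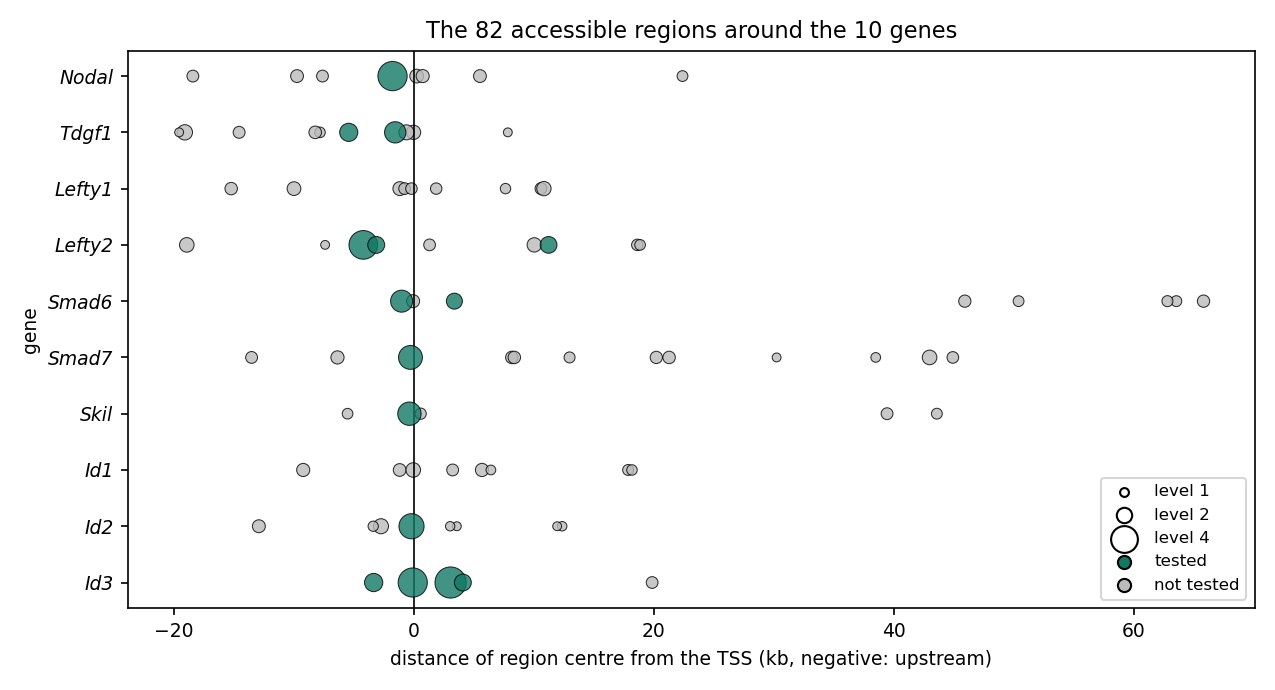
Distance of each of the 82 region centres from the start site of its gene (x axis, kb, negative upstream) by gene, with circle area rising with the mean level and tested regions in green. The large green circles sit near 0 for Nodal, Smad7, Skil, Id2 and Id3 and about 4 kb upstream for Lefty2.

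Missing reads were about as common in 4HT as in EtOH columns. Of 328 pairs of a region and a column in each treatment, 49 had no read in 4HT cells (14.9%) and 44 in EtOH cells (13.4%). Over all regions the share without a read was 19.9% to 32.8% by column in 4HT cells and 20.4% to 27.6% in EtOH cells. The shallowest column, 4HT in G1, accounted for 21 of the 49. Of the 82 regions, 47 had a read in all 4 fractions of 4HT cells and 53 in all 4 of EtOH cells. A single region, of Id2, had reads in EtOH cells alone, and a single region, of Tdgf1, in 4HT cells alone. Each stood at the 1-read value wherever it was read. Shares over all regions were not counted for regions read in all 4 fractions or in a single treatment.

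No TSS window of the 10 genes and none of their 15 tested regions differed between 4HT and EtOH cells past the threshold. Of the regions over a start site, only those of Smad7, Skil, Id2 and Id3 were among the tested ones. The test was a limma model over the 8 columns with terms for treatment and fraction, fitted to log2(signal + 0.1) after centring, with the 4 fractions as repeats of the treatment contrast. It covered 15323 windows and 11010 regions, and the threshold was a Benjamini-Hochberg adjusted p of 0.05 over each whole table. Of all tested windows 0.0131% were called, and of all tested regions 0%, with a smallest adjusted p of 0.218. At an unadjusted p under 0.05 stood 1 of the 10 member windows, against 5.28% of all windows, and 0 of the 15 member regions, against 5.42% of all regions. Of the member windows 5 were higher and 5 lower in 4HT cells, where 50.2% of all tested windows were higher, with a median log2 difference of -0.02, against 0.00 over all tested windows. Of the member regions 9 were higher and 6 lower, where 50.2% of all tested regions were higher, with a median of 0.07, against 0.00 over all tested regions.

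Differences in the same direction in 4 of 4 fractions were seen at 4 of the 10 windows (Smad6 and Smad7 higher, Tdgf1 and Id2 lower in 4HT cells), where 12.9% of all tested windows had them (6.58% higher, 6.32% lower). They were also seen at 4 of the 15 regions, 2 in each direction, where 13.4% of all tested regions had them (6.69% higher, 6.66% lower). The p-values measure the spread among pooled columns, which cover different cell cycle fractions, and not the spread between cultures.

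**Figure D3:**
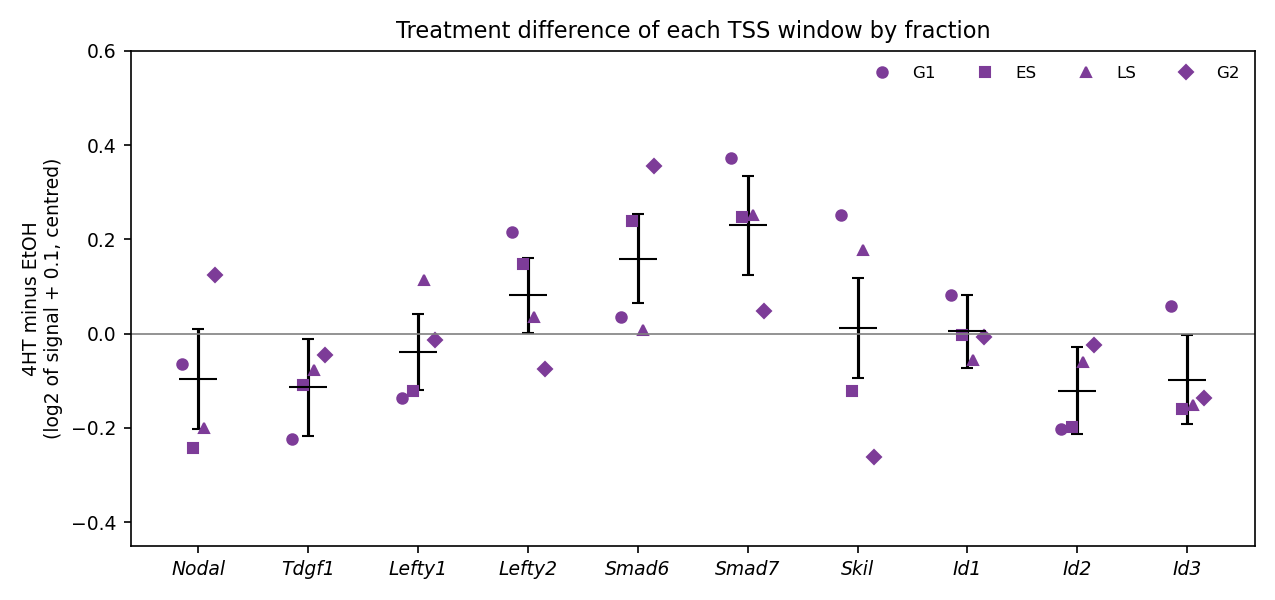
Difference between 4HT and EtOH (y axis, log2 of signal + 0.1 after centring) of each TSS window, with a symbol for each fraction, a black bar at the fitted mean and whiskers of 1 SE. The Smad7 bar is the highest at 0.23, and the bars of the other 9 genes lie between -0.12 and 0.16.

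Nodal, the ligand, showed no difference between treatments that exceeded the spread among columns. The signal of its window (chromosome 10, 61415323 to 61420322) was 0.247, 0.215, 0.274 and 0.261 in 4HT cells in G1, ES, LS and G2, against 0.215, 0.299, 0.386 and 0.216 in EtOH cells. The ranges overlapped, and EtOH cells in LS stood highest. After centring, 4HT cells were lower in G1, ES and LS and higher in G2 (log2 -0.06, -0.24, -0.20 and 0.12), with a mean of -0.10 (SE 0.11, adjusted p 0.979).

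The only strong region near Nodal lies upstream and within this window, at 61415761 to 61416658, centred 1762 bp before the start site, and overlaps no annotated gene. The region had a mean level of 4.47, with a signal of 0.344, 0.390, 0.554 and 0.467 in 4HT cells, against 0.437, 0.502, 0.825 and 0.359 in EtOH cells. Both treatments were highest in LS, and 4HT cells were lower than EtOH cells in G1, ES and LS but not in G2 (log2 -0.33, -0.23, -0.43 and 0.35). The mean difference was -0.16 (SE 0.19, adjusted p 0.978). The other 7 regions of the locus had levels of 1.29 to 1.73, and of these the region at 61418125 to 61418311, just past the start site, stood at 1 read in 3 columns.

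Tdgf1, the co-receptor, had a window that was lower in 4HT cells in 4 of 4 fractions after centring, without passing the test. The signal of its window (chromosome 9, 110943809 to 110948808) was 0.203, 0.221, 0.215 and 0.283 in 4HT cells in G1, ES, LS and G2, against 0.205, 0.271, 0.274 and 0.277 in EtOH cells. The groups overlapped, and the centred differences were log2 -0.22, -0.11, -0.08 and -0.05, with a mean of -0.11 (SE 0.10, adjusted p 0.973). Its strongest region lies 1540 bp upstream, at 110947078 to 110948319, with a signal of 0.271, 0.279, 0.247 and 0.313 in 4HT cells, against 0.322, 0.320, 0.359 and 0.457 in EtOH cells. Here the highest 4HT value (0.313) lay narrowly below the lowest EtOH value (0.320). In multiples of the 1-read value the groups overlapped, with 2.78 in 4HT cells in G2 and 2.68 in EtOH cells in ES. The mean difference was log2 -0.28 (SE 0.19, adjusted p 0.943). This region lies in the window, so the values share reads.

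A further Tdgf1 region, in Lrrc2 and 5411 bp upstream (110951394 to 110951744), had no fixed order of treatments. Its signal was 0.161, 0.202, 0.434 and 0.176 in 4HT cells, against 0.327, 0.331, 0.260 and 0.189 in EtOH cells, so 4HT cells were lower in G1, ES and G2 and higher in LS (mean log2 -0.18, SE 0.24, adjusted p 0.987). The region over the start site itself (110946083 to 110946259) was weaker, at a level of 1.83, and had no read in EtOH cells in ES.

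The Lefty genes, which encode inhibitors of Nodal, lie on chromosome 1 with 35914 bp between them and had windows of low level. The Lefty1 window (180932373 to 180937372) had a signal of 0.198, 0.124, 0.151 and 0.159 in 4HT cells in G1, ES, LS and G2, against 0.175, 0.159, 0.161 and 0.143 in EtOH cells. The Lefty2 window (180890459 to 180895458) had 0.221, 0.173, 0.147 and 0.133 in 4HT cells, against 0.132, 0.162, 0.171 and 0.127 in EtOH cells. In both the groups overlapped, with mean log2 differences of -0.04 (SE 0.08, adjusted p 0.994) for Lefty1 and 0.08 (SE 0.08, adjusted p 0.977) for Lefty2.

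Lefty2 differed from Lefty1 in its upstream regions. The region 4196 bp before the Lefty2 start site (180888280 to 180889544) had a level of 4.36, with a signal of 0.321, 0.482, 0.496 and 0.554 in 4HT cells, against 0.255, 0.515, 0.393 and 0.672 in EtOH cells. As deposited, both treatments were lowest in G1 and highest in G2. In multiples of the 1-read value 4HT cells were highest in LS, at 5.49 against 4.92 in G2. The mean difference between treatments was log2 0.08 (SE 0.18, adjusted p 0.990). The region lies outside the Lefty2 window, which therefore does not show it. The region beside it, 3122 bp upstream (180889885 to 180890088), had 0.260, 0.244, 0.496 and 0.121 in 4HT cells, against 0.214, 0.206, 0.214 and 0.152 in EtOH cells, where 4HT cells in LS stood highest (mean log2 0.27, SE 0.24, adjusted p 0.959). No Lefty1 region reached a level of 2. Its strongest were a region in Tmem63a (180945757 to 180945984) at 1.83 and a region 1153 bp upstream (180933734 to 180934004) at 1.76, each without a read in 1 column of 4HT cells.

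The windows of the inhibitory Smad genes were higher in 4HT cells in 4 of 4 fractions after centring, without passing the test. In multiples of the 1-read value 4HT cells were lower at the Smad6 window in G1 (1.70 against 1.91). They were also lower at the Smad7 window in G2 (2.38 against 2.68). The Smad7 window (chromosome 18, 75364880 to 75369879) had a signal of 0.377, 0.233, 0.293 and 0.268 in 4HT cells in G1, ES, LS and G2, against 0.219, 0.201, 0.274 and 0.239 in EtOH cells. As deposited the groups overlapped, and after centring every 4HT value lay above every EtOH value. Such a separation was seen at 1 of the 10 windows, against 2.54% of all tested windows in either direction. The centred differences were log2 0.37, 0.25, 0.25 and 0.05, with a mean of 0.23, or 1.17-fold (SE 0.11, unadjusted p 0.0344, adjusted p 0.942). The region over the Smad7 start site (75366440 to 75367753), which lies within this window, had 0.494, 0.414, 0.387 and 0.410 in 4HT cells, against 0.323, 0.240, 0.384 and 0.359 in EtOH cells. All 4HT values exceeded all EtOH values as deposited, but narrowly, with 0.387 in 4HT cells against 0.384 in EtOH cells, both in LS. In multiples of the 1-read value the groups overlapped, with 3.35 in 4HT cells in G1 and 4.01 in EtOH cells in G2. The mean difference was log2 0.33, or 1.26-fold (SE 0.19, adjusted p 0.934). After centring, groups without overlap were seen at 2 of the 15 regions, this one and the Tdgf1 region 1540 bp upstream, against 2.81% of all tested regions.

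For Smad6 the window and the strongest region differed most in ES and G2, without passing the test. Its window (chromosome 9, 64019710 to 64024709) had 0.250, 0.195, 0.159 and 0.232 in 4HT cells, against 0.191, 0.167, 0.187 and 0.145 in EtOH cells, and the groups overlapped. The centred differences were log2 0.04, 0.24, 0.01 and 0.35, with a mean of 0.16 (SE 0.09, adjusted p 0.969). The strongest Smad6 region lies 1007 bp upstream (64022849 to 64023335) and within this window, so the values share reads. It had 0.374, 0.426, 0.264 and 0.480 in 4HT cells, against 0.371, 0.216, 0.288 and 0.295 in EtOH cells. Its 4HT value was higher in ES and G2 and close to that of EtOH cells in G1 and LS, and the mean difference was log2 0.32 (SE 0.21, adjusted p 0.934). The region in the gene body 3390 bp past the start site had 0.245, 0.256, 0.254 and 0.276 in 4HT cells, against 0.246, 0.136, 0.188 and 0.201 in EtOH cells (log2 0.29, SE 0.22, adjusted p 0.949). The region over the start site, which covers the whole Smad6 promoter shown above with its SMAD palindrome, had a level of 1.62 and no read in 4HT cells in G2.

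Skil, the Smad corepressor, had a region over its start site and no steady difference. Its window (chromosome 3, 31092409 to 31097408) had a signal of 0.259, 0.228, 0.246 and 0.212 in 4HT cells in G1, ES, LS and G2, against 0.159, 0.282, 0.244 and 0.256 in EtOH cells. The 4HT value was higher in G1 and lower in ES and G2, and the mean log2 difference was 0.01 (SE 0.11, adjusted p 0.9997). The region over its start site (31094112 to 31095293) had 0.310, 0.277, 0.443 and 0.338 in 4HT cells, against 0.229, 0.429, 0.420 and 0.442 in EtOH cells, with the same order of treatments in each fraction as the window after centring (mean log2 -0.09, SE 0.20, adjusted p 0.990). This region lies in the window, so the values share reads. The other 4 Skil regions had levels of 1.26 to 1.44.

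Of the Id genes, targets of BMP signalling, Id2 and Id3 had negative mean differences at their windows and Id1 a mean near 0, and none passed the test. The Id1 window (chromosome 2, 152733602 to 152738601) had 0.171, 0.143, 0.162 and 0.151 in 4HT cells in G1, ES, LS and G2, against 0.114, 0.159, 0.207 and 0.133 in EtOH cells. The mean log2 difference was 0.00 (SE 0.08, adjusted p 0.9997). The strongest Id1 region lies over the start site (152736115 to 152736313) at a level of 1.87, and a second, 5690 bp downstream (152741847 to 152742036), at 1.66, had a read in 4 of 4 fractions of 4HT cells and in 1 of 4 of EtOH cells. That split rests on few reads, since 4HT cells in G1 and ES stood at the 1-read value. Its share over all regions was not counted. The Id2 window (chromosome 12, 25093743 to 25098742) had 0.173, 0.156, 0.183 and 0.210 in 4HT cells, against 0.168, 0.213, 0.229 and 0.198 in EtOH cells (log2 -0.12, SE 0.09, adjusted p 0.970). Here the groups overlapped, and the 4HT values were lower after centring in 4 of 4 fractions. The Id2 start site region (25096048 to 25096498) did not follow, with 0.204, 0.407, 0.514 and 0.481 in 4HT cells, against 0.247, 0.306, 0.608 and 0.378 in EtOH cells (log2 0.07, SE 0.20, adjusted p 0.990).

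Id3 had the most tested regions of the 10 genes. Its window (chromosome 4, 136140848 to 136145847) had 0.226, 0.176, 0.159 and 0.192 in 4HT cells in G1, ES, LS and G2, against 0.168, 0.229, 0.221 and 0.204 in EtOH cells. After centring 4HT cells were lower in ES, LS and G2 (log2 -0.16, -0.15 and -0.14) and higher in G1 (0.06), with a mean of -0.10 (SE 0.09, adjusted p 0.975). The region over the start site (136143639 to 136143850), which holds the SMAD core matches printed above, had 0.396, 0.321, 0.516 and 0.397 in 4HT cells, against 0.401, 0.545, 0.571 and 0.656 in EtOH cells. It was lower in 4HT cells in 4 of 4 fractions, the groups overlapped, and the mean was log2 -0.31 (SE 0.18, adjusted p 0.934). The strongest region of all 82, 3072 bp downstream of the start site (136146633 to 136147154, level 4.83), had 0.631, 0.353, 0.636 and 0.559 in 4HT cells, against 0.575, 0.421, 0.331 and 0.622 in EtOH cells. Treatments were close there in G1, ES and G2, and 4HT cells were higher in LS (mean log2 0.17, SE 0.20, adjusted p 0.976). The next region downstream (136147726 to 136148114) had 0.176, 0.116, 0.199 and 0.415 in 4HT cells, against 0.283, 0.266, 0.261 and 0.230 in EtOH cells, with 4HT cells lower in 3 fractions and higher in G2 (mean log2 -0.22, SE 0.24, adjusted p 0.974).

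**Figure D4:**
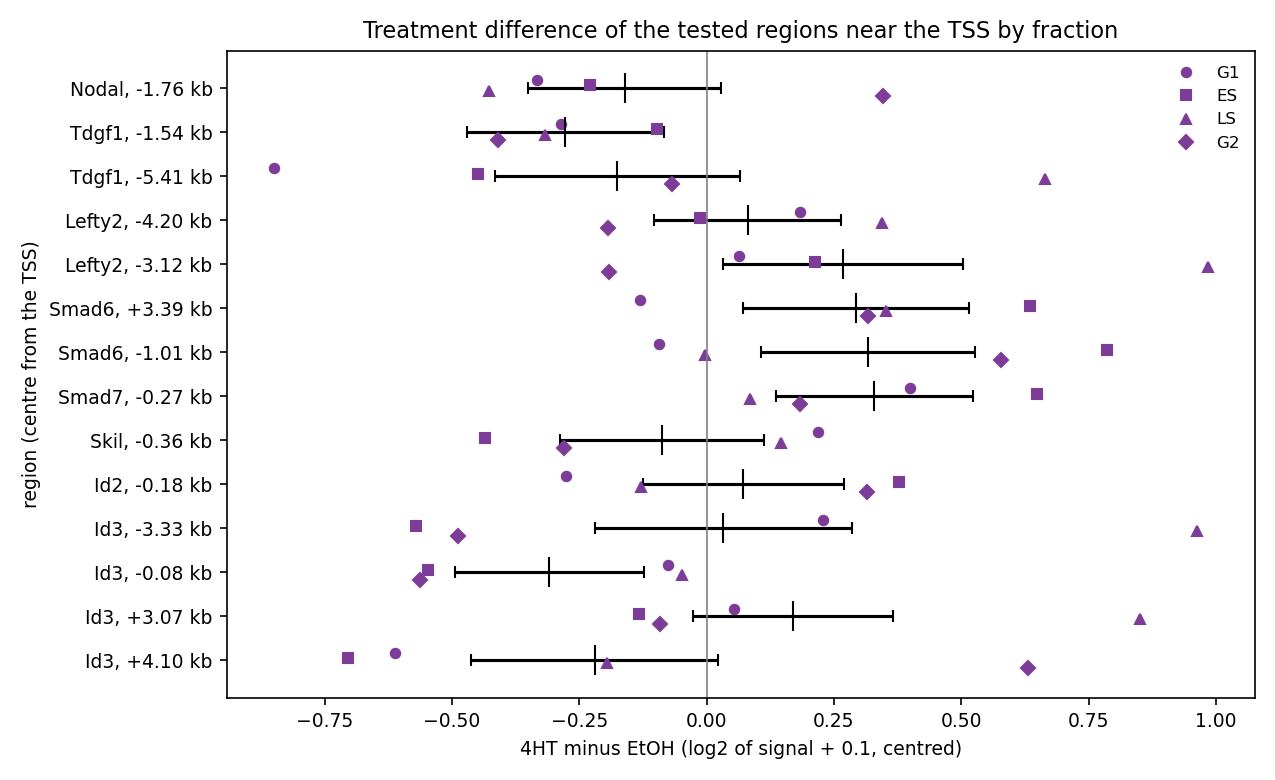
Difference between 4HT and EtOH (x axis, log2 of signal + 0.1 after centring) of the 14 tested regions centred within 5500 bp of a start site, named by gene and distance of the centre from the TSS, with a symbol for each fraction, a black bar at the fitted mean and whiskers of 1 SE. All 4 symbols lie on 1 side of 0 for Smad7 (above 0), and for the Id3 start site and the Tdgf1 region 1.54 kb upstream (below 0).

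Between cell cycle fractions, none of the 10 windows and none of the 15 regions passed either. The limma F test over the 3 fraction terms called 0.111% of all tested windows and 0.0182% of all tested regions, and 0 of the members. At an unadjusted p under 0.05 stood 1 member window, against 6.88% of all windows, and 3 member regions, against 7.04% of all regions. The member window was that of Id1, where LS exceeded G1 by log2 0.32 (SE 0.11) on average, in 4HT cells (0.25) and in EtOH cells (0.39) alike (unadjusted F test p 0.0438, adjusted p 0.709). Nodal had a similar order, with LS above G1 by 0.37 (SE 0.15), at 0.30 in 4HT cells and 0.43 in EtOH cells (adjusted p 0.757). Tdgf1 was highest in G2, by 0.37 (SE 0.14) over G1, at 0.45 in 4HT cells and 0.28 in EtOH cells (adjusted p 0.757).

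The regions with the widest differences between fractions lay at Id3, Lefty2 and Id2. The Id3 region 3334 bp upstream (136140358 to 136140617), which overlaps the predicted gene Gm42329, had 0.618, 0.117, 0.307 and 0.126 in 4HT cells over the fractions G1 to G2, against 0.456, 0.237, 0.122 and 0.216 in EtOH cells. G1 was the highest fraction in both treatments, and ES, LS and G2 lay below it by log2 -1.18, -1.14 and -1.25 (SE 0.36 each, unadjusted F test p 0.00737, adjusted p 0.534). EtOH cells in LS stood at the 1-read value there, and the mean 4HT minus EtOH difference was 0.03 (SE 0.25, adjusted p 0.996). The upstream Lefty2 region at a level of 4.36 went the other way, with ES, LS and G2 above G1 by log2 0.69, 0.34 and 0.81 (adjusted p 0.643). The Id2 start site region likewise exceeded G1 by 0.52 in ES, 0.88 in LS and 0.63 in G2 (adjusted p 0.685). These Lefty2 and Id2 regions were lowest in G1 in each treatment.

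**Figure D5:**
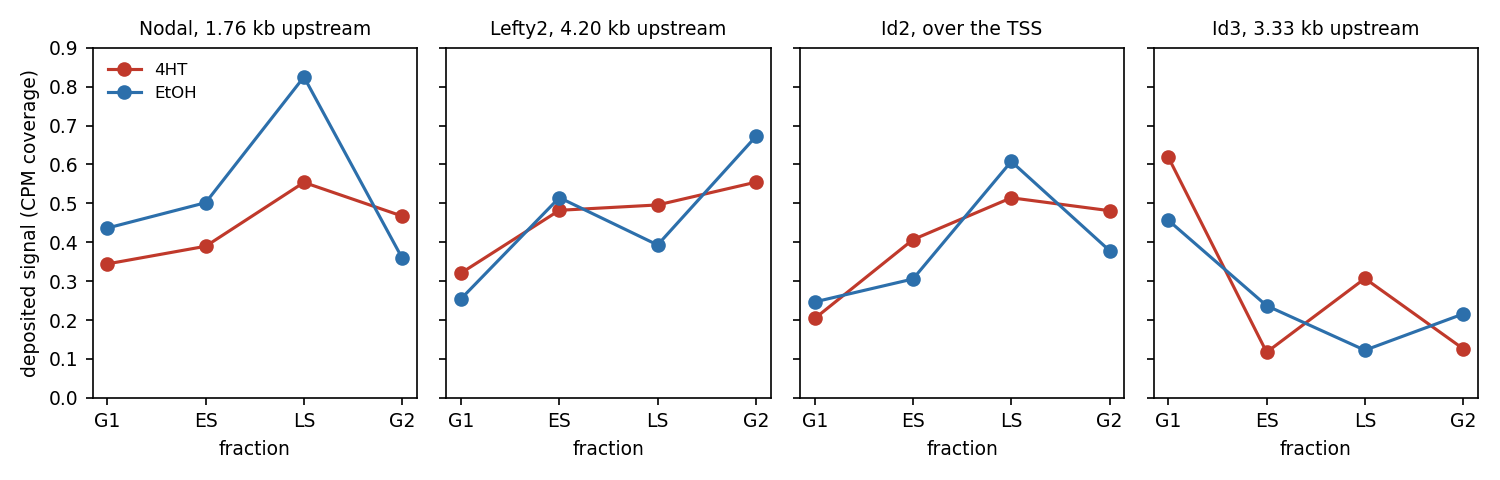
Deposited signal (y axis, CPM coverage) by fraction (x axis) of the strongest regions of Nodal, Lefty2 and Id2 and of the Id3 region with the smallest unadjusted p between fractions, with 4HT in red and EtOH in blue. Nodal and Id2 peak in LS in both treatments, Lefty2 is lowest in G1, and the Id3 region is highest in G1 (0.618 in 4HT and 0.456 in EtOH).

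LS exceeded G1 on average at 6 of 10 windows, against 50.1% of all tested windows, and in both treatments at 5, against 26.2%. At the 15 regions these counts were 7, against 49.6% of all tested regions, and 5, against 26.3%. The median LS minus G1 difference was log2 0.09 for the windows and -0.05 for the regions, against 0.00 for each whole table.

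The windows whose profile over the 8 columns was most like that of Nodal belonged to Dpp4, Dapk2 and Mcts1, with a Pearson r of 0.962, 0.958 and 0.951 over 8 pooled columns of centred log2 signal, among 9517 named protein-coding windows. Of the members, Id1 (0.81) and Id2 (0.60) were the nearest and Smad6 (-0.49) the farthest. These columns share depth and centring, and the values are a description.

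Of 44 further ligands, receptors, Smads, cofactors and inhibitors, 38 had a window, 23 were tested and 0 were called in either direction, against 0.0131% of all tested windows, and 2 stood at an unadjusted p under 0.05, against 5.28% of all tested windows. These were Bmpr1a, a type I receptor for BMP, and Acvr1b, a type I receptor for Nodal and activin. Bmpr1a had 0.163, 0.130, 0.111 and 0.178 in 4HT cells in G1, ES, LS and G2, against 0.146, 0.210, 0.183 and 0.158 in EtOH cells (log2 -0.19, SE 0.08, unadjusted p 0.0263, adjusted p 0.942). Acvr1b had 0.212, 0.153, 0.150 and 0.174 in 4HT cells, against 0.114, 0.134, 0.161 and 0.143 in EtOH cells (log2 0.16, SE 0.08, unadjusted p 0.0413, adjusted p 0.942). Of the tested genes 13 were higher and 10 lower in 4HT cells, where 50.2% of all tested windows were higher, with a median log2 difference of 0.00. The ligand windows had a median level of 1.35, with Gdf1 the highest at 1.99 and Bmp4 the lowest at 1.23, and the Smads and cofactors a median of 1.64, with the ubiquitin ligase Smurf1 the highest at 2.45.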

How the data were processed

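The authors deposited 2 tables of coverage signal in CPM, for accessible regions and for windows of 5000 bp around start sites, with 8 pooled columns and no replicate numbers, per the file headers. The build mm10 and the tool featureCounts are named, with no role, per the submitters' processing notes. The aligner was not given in the sources used here. Duplicate windows were kept once. Tested intervals had no column without a read, and a mean level of at least 1.3 (windows) or 2 (regions). The signal was transformed as log2(signal + 0.1), which understates folds of low intervals, and centred by cyclic loess. As deposited, the median window differed between 4HT and EtOH by log2 -0.17 in LS and 0.25 in G1. A limma 3.58.1 model (R 4.3.3) with treatment and fraction terms, 3 residual degrees of freedom, intensity trend and robust moderation was fitted to each whole table and tested on simulated data. Other work used Python 3.11.15. The members, lists, tests and alternatives were chosen with earlier results of these data known, and 1 alternative was added after seeing the data. Gene positions came from RefSeq on GRCm38.p6. Named regions were those tested, plus the 2 strongest where a gene had none, and 1 tested region is counted but not reported here. Other regions named, such as weak ones over a start site, were chosen after their values were seen.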

Additional observations from a re-analysis of the deposited data

Results flagged for a closer look

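Across 25 sets of 4 differences between 4HT and EtOH cells (10 windows and 15 regions, 1 difference for each fraction), 1 set held a value far from the others. At the Id3 window the difference in G1 was log2 0.058, while ES, LS and G2 stood at -0.16, -0.15 and -0.14. Chance flags about 1 in 20 such sets. 4HT in G1 is the shallowest column, and the part of depth in this value was not tested.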

How the results depend on the processing

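Between 4HT and EtOH, no member window or region passed under the alternatives in which it was tested. These were a pseudocount of 0.5, no minimum level, a higher minimum level (1.6 for windows, 3 for regions), no centring, median scaling, a correction for reads hidden by the average (added after seeing the data) and the omission of each fraction. The higher minimum left 16 of the 25 members, and the test between fractions was not read for single members under the alternatives. The number of all windows called between 4HT and EtOH was 2, and was 0 with no minimum level, 1 with the higher minimum, 0 as deposited without centring, and 0 (without G2) to 4 (without ES) with a fraction left out. The number called between fractions was 17, and was 10 with no minimum level, 7 as deposited, and 4 (without G2) to 17 (without ES) with a fraction left out. Of regions 2 were called between fractions, and 0 (without G2) to 2 with a fraction left out. The cause of these changes was not tested. Of the values of single members under alternatives, 226 kept their direction and 15 changed sign, each of these with a main value smaller than its SE. Others kept their sign but moved by over 1.5 times: 38 of 100 values with a fraction left out, 12 of 25 with the correction, 23 of 25 with the pseudocount of 0.5, 3 of 25 as deposited and 1 of 25 with median scaling. With a fraction left out, the Lefty2 region 3122 bp upstream ranged between 0.029 and 0.44, the Id3 region 4098 bp downstream between -0.52 and -0.052, and the Nodal region between -0.33 and -0.075. With the correction the Id2 window stood at -0.27 and the Smad6 window at 0.30. The Skil window stood at log2 -0.0088 with median scaling and between -0.067 and 0.10 with a fraction left out. The Id1 window stood at -0.0016 with the pseudocount of 0.5, at -0.0020 with the correction, and between -0.021 and 0.021 with a fraction left out. With a fraction left out, regions ranged between -0.46 and 0.045 (Tdgf1, 5411 bp upstream), -0.0093 and 0.16 (Lefty2, 4196 bp upstream), -0.19 and 0.029 (Skil), -0.029 and 0.19 (Id2), -0.27 and 0.24 (Id3, 3334 bp upstream) and -0.059 and 0.27 (Id3, 3072 bp downstream). The Id2 region stood at -0.0063 with the correction. Motif matches numbered 5, and 1 when the search was narrowed to the bases just before the start site. No paired analysis was possible because the columns carry no replicate numbers. Depth limits weak sites: 42 of the 82 regions lacked a read in some column.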
